A study of Homo sapiens with 6 samples.

Results

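The genes described here are the numbered zinc finger genes from ZNF600 to ZNF799. They are all rows whose name is ZNF followed by a number in that range, a rule that uses the symbol only. The tables hold 132 such genes among 23340 names. RNA of 3 established human lines was sequenced, in 6 libraries, 2 for each line. MCF10A is a non-tumorigenic mammary epithelial line grown with EGF, hydrocortisone, cholera toxin and insulin. HT-29 is a colorectal adenocarcinoma line, and both of its libraries carry the label of a 24 hours exposure to 200 U per ml of IFN-γ. MDA-MB-436 is a breast adenocarcinoma line with no labelled treatment. Line, culture medium and treatment change together, so their parts in a difference cannot be told apart. One library of each line is labelled 25M reads and the other is deeper.

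Most proteins of this group bind DNA through tandem C2H2 fingers, in which pairs of cysteines and histidines hold a zinc ion and neighbouring residues read the bases. Many also carry a KRAB box, which recruits the scaffold TRIM28. TRIM28 in turn brings the histone methyltransferase SETDB1, HP1 proteins and deacetylases to the bound DNA. KRAB zinc finger genes lie in large clusters that grew by tandem duplication, above all on chromosome 19, and many of their proteins bind transposable elements.

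The line markers went against 2 of the 3 labels. KRT20, an intestinal keratin, stood at 29900 and 30880 normalised counts in the MDA-MB-436-labelled libraries and at no more than 1.47 in the other 4. VIL1, the microvillus protein villin, stood at 2055 and 2198 there and at 0 in the others. VIM, the mesenchymal filament protein vimentin, stood at 36599 and 35267 in the HT-29-labelled libraries and at 25901 and 26246 in MCF10A. It stood at only 16.5 and 7.39 in the libraries labelled MDA-MB-436. No sample was regrouped, and each direction below is that of the libraries as labelled. MCF10A had its basal keratin KRT5 at 424101 and 416184. Recovered depth ran from 16.7 to 69.4M reads per library. KRT14, another basal keratin, stood at 91.5 and 84.4 in the 25M libraries labelled HT-29 and MDA-MB-436 and at 2.74 and 0.616 in the deeper ones. The part of such reads in the levels of the zinc finger genes was not tested.

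The 132 genes together took 1749 and 1774 reads per M (counts per 1M recovered reads) in MCF10A, 2688 and 2729 in the libraries labelled HT-29, and 2776 and 2711 in those labelled MDA-MB-436. A gene is called silent in a line when its normalised count is under 3 in both libraries, and expressed when it is at least 30 in both. By this rule 87 of the 132 genes were expressed in all 3 lines and 12 were silent in all 3. The 12 are ZNF626, ZNF645, ZNF648, ZNF660, ZNF662, ZNF663, ZNF679, ZNF683, ZNF727, ZNF729, ZNF732 and ZNF735. The silent genes numbered 26 in MCF10A, 13 in the HT-29-labelled libraries and 26 in those labelled MDA-MB-436, or 19.7%, 9.85% and 19.7% of the 132. Over all names the shares were 36.9%, 28.4% and 35.1%, and over the 353 other numbered ZNF genes 15.3%, 5.67% and 16.1%, so the libraries labelled HT-29 had the smallest share in all 3 sets. No read was found in either library for 20, 7 and 20 of the genes in the same order. A count of 0 over both libraries of a line allows up to 1.17 normalised counts in MCF10A, 1.20 in the HT-29-labelled libraries and 1.42 in those labelled MDA-MB-436, from a limit of 3 reads, which covers counting error only.

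Silence in 1 line only was rare. ZNF717 was the single gene silent in MCF10A and expressed in both other lines, or 0.758% of the 132, where 0.677% of all names show that pattern. It encodes a KRAB zinc finger protein. It had 0 in both MCF10A libraries, 64.5 and 66.2 in those labelled HT-29 and 63.8 and 66.5 in those labelled MDA-MB-436. By the limits used, the groups could not overlap. With MCF10A set to the limit of 3 reads, pooled reads of ZNF717 were 56.3-fold higher in the HT-29-labelled libraries. They were 56.5-fold higher in those labelled MDA-MB-436. The genes silent only in the libraries labelled HT-29 numbered 0, beside 0.184% of all names. Those silent only in the libraries labelled MDA-MB-436 also numbered 0, beside 1.22% of all names. Among the 353 other numbered ZNF genes, 1.13% were silent only in MCF10A and 0.283% only in the libraries labelled HT-29. There, 2.27% were silent only in the libraries labelled MDA-MB-436, so that the larger set did hold this pattern.

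The reverse pattern, expression in 1 line and silence in the others, was found mostly in the libraries labelled HT-29. They had 6 such genes, or 4.55% of the 132, where 1.9% of all names show it. Among the 353 other numbered ZNF genes the share was 5.10%. MCF10A had 1 such gene, beside 0.201% of all names, and the libraries labelled MDA-MB-436 had 0, beside 0.737%.

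ZNF606, a KRAB protein with 13 fingers in its longest reading frame, stood at 246 and 266 in the libraries labelled HT-29, at 0 and 0.491 in MCF10A and at 0 in both libraries labelled MDA-MB-436. ZNF667, with 14 fingers, stood at 222 and 219 there and at 0 in the other 4 libraries. ZNF788, which RefSeq lists as a pseudogene, stood at 132 and 153 and at 0 in the other 4. These are well above the level called expressed. ZNF677 followed with 73.5 and 94.1, ZNF610 with 36.0 and 37.2 and ZNF625 with 33.0 and 32.3, each at 0 in the other 4 libraries. ZNF610 and ZNF625 lie just above the limit of 30. With the line at 0 set to the limit of 3 reads, pooled reads of ZNF667 were 189-fold higher than in MCF10A. They were 155-fold higher than in the MDA-MB-436-labelled libraries. For ZNF625 the folds were 27.8 and 22.8 in the same order. These values chose the 6 genes, so no test is given for them.

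The windows around the start sites of the genes with these 1-line patterns are shown because their CG content is a feature that the choice by symbol did not use. RefSeq windows of GRCh38.p14, from 250 bases before to 50 after the start, were given for 104 of the 132 genes, among them 4 of the 6 and ZNF717. The build named for the counts is hg19, so these coordinates serve the windows only. Each window runs 5′ to 3′ on the gene's strand, with every CG dinucleotide in capitals.
ZNF667, chr19:56477296-56477595, minus strand: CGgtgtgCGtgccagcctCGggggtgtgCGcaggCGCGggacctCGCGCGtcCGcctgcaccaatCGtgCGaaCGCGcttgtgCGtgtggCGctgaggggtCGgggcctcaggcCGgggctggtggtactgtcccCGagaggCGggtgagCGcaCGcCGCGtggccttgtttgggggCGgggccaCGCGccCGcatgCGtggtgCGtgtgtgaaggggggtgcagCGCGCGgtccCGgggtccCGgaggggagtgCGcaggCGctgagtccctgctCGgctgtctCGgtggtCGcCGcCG
ZNF606, chr19:58002771-58003070, minus strand: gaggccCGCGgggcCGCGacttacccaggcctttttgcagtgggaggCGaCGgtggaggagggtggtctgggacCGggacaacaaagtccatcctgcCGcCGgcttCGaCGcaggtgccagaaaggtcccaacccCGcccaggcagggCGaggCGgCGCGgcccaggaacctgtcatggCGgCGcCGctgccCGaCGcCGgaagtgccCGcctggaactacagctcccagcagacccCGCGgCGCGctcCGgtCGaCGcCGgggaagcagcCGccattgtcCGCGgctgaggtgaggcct
ZNF677, chr19:53254774-53255073, minus strand: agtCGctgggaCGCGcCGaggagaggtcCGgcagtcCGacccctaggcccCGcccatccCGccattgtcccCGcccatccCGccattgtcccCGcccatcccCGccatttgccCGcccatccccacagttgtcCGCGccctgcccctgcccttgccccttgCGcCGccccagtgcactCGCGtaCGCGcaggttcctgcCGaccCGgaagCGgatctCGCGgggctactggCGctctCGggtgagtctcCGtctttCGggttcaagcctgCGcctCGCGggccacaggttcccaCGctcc
ZNF625, chr19:12156685-12156984, minus strand: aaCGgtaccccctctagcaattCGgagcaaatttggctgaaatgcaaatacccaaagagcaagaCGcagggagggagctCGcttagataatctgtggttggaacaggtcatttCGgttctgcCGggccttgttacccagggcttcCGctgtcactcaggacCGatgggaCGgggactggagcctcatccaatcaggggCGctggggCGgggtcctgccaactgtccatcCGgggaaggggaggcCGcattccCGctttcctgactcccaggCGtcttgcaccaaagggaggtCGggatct
ZNF717, chr3:75785500-75785799, minus strand: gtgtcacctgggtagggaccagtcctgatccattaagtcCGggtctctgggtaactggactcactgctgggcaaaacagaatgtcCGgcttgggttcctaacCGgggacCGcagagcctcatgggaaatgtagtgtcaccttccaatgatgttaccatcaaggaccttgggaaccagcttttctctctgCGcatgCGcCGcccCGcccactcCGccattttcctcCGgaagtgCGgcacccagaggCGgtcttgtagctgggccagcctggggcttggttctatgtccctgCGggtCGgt

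The capitals are dense in the first 3 windows and sparser in those of ZNF625 and ZNF717. ZNF667 had 42 CG sites, ZNF606 and ZNF677 had 34 each, ZNF625 had 16 and ZNF717 had 14. The median was 22 sites over the 104 windows, 22 over the windows of names in the tables and 14 over all 35116 RefSeq windows, and 96% of windows hold at least 1 CG. A window was called island-like at a GC share of at least 50% and an observed to expected CG ratio of at least 0.6. The 4 windows of the genes expressed only in the libraries labelled HT-29 all met this, with ratios of 1.03 (ZNF667), 0.94 (ZNF677), 0.88 (ZNF606) and 0.62 (ZNF625). The ZNF717 window had a ratio of 0.54 and did not. Among genes expressed in all 3 lines, 58 of 70 windows were island-like, and among those silent in all 3 lines 2 of 9 were. Over all 104 windows the share was 73.1%, beside 46.9% of all RefSeq windows and 63.7% of those of names in the tables. Methylation was not measured here.

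Just outside the rule, ZNF793 stood at 24.0 and 37.2 in the HT-29-labelled libraries and at 0 in the other 4. ZNF682 stood at 25.5 and 22.4, also with 0 elsewhere. ZNF665 stood at 21.0 and 26.8 and at 0.616 or less elsewhere. ZNF681 missed the rule on the other side, with 52.5 and 67.8 there, 0 and 0.982 in MCF10A and 0 and 5.54 in the libraries labelled MDA-MB-436. ZNF671, a KRAB gene known for promoter methylation in several carcinomas, stood at 117 and 124 in the libraries labelled HT-29, at 3.75 and 3.93 in MCF10A and at 4.12 and 4.31 in those labelled MDA-MB-436. Its pooled reads were 31.4-fold higher (95% counting interval 16.9 to 66.2) than in MCF10A. ZNF667 and ZNF677 are known for the same kind of methylation in tumours, and whether it bears on these levels was not tested. Of the genes just outside the rule, ZNF793 had an island-like window, with a CG ratio of 0.76. ZNF682, ZNF681 and ZNF671 did not, with ratios of 0.42, 0.39 and 0.50, and ZNF665 had no window. The share of island-like windows thus depends on the limits set for silent and expressed.

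The 1 gene expressed only in MCF10A was ZNF750, a regulator of epidermal differentiation that acts below TP63. It stood at 287 and 294 in MCF10A, at 0 and 0.547 in the HT-29-labelled libraries and at 0 and 1.23 in those labelled MDA-MB-436. TP63 itself, the basal epithelial factor, stood at 2835 and 2981 in MCF10A and at 24.0 or less in the other 4 libraries. ZNF750 had no KRAB box and no finger of the pattern searched.

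No gene was silent only in the libraries labelled MDA-MB-436, but several came close. Of 13 genes expressed in 2 lines and between the limits in 1, 11 were lowest in these libraries. How many of all names show this pattern was not counted. In the fit described below, 16.2% of the tested genes were called lowest there, beside 15.2% of all tested genes. ZNF736 stood at 4.12 and 3.70 there against 82.4 and 89.4 in MCF10A and 57.0 and 51.4 in the libraries labelled HT-29. ZNF605 stood at 6.18 and 8.01 against 172 and 153 and against 330 and 390. ZNF701 stood at 10.3 and 10.5 against 322 and 318 and against 353 and 393. All 3 are KRAB genes. They were named for a large fall without overlap against MCF10A, and the low libraries did not overlap those labelled HT-29 either. The remaining low ones were ZNF607, ZNF615, ZNF642, ZNF658, ZNF704, ZNF718, ZNF737 and ZNF772. With silence read as under 10 in place of under 3, ZNF605 and ZNF736 became the 2 genes silent only there, beside 1.89% of all names.

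**Figure D1:**
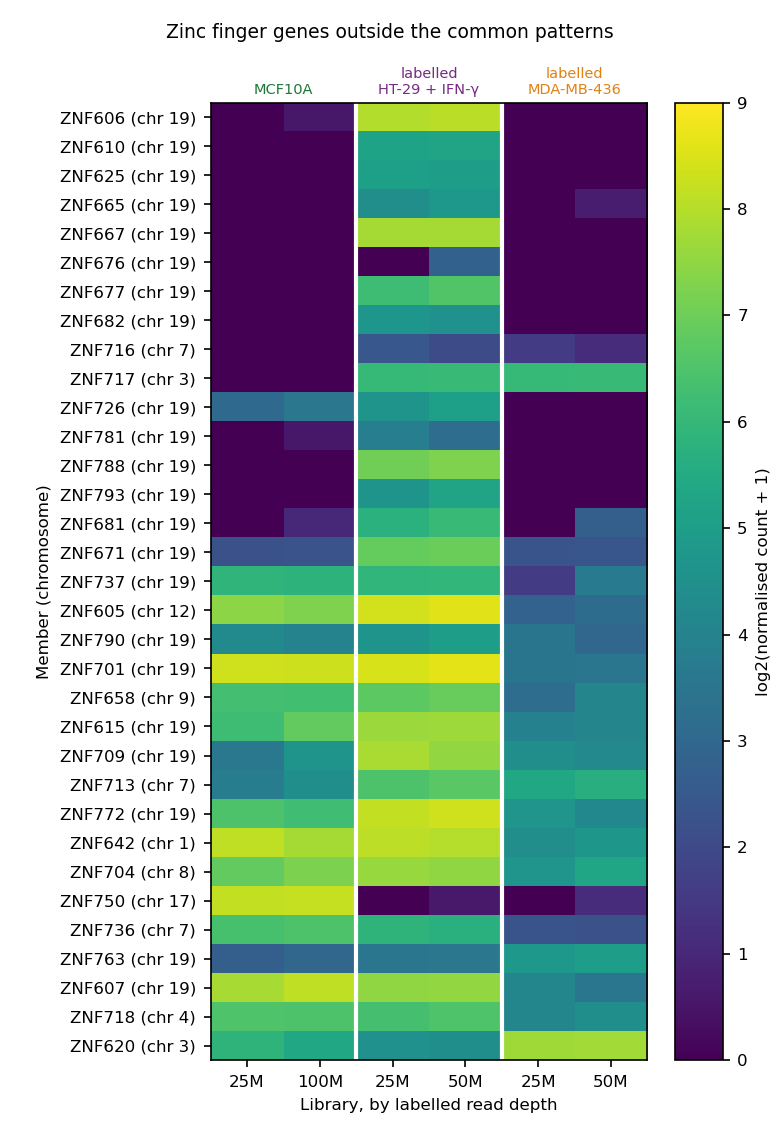
Heat map of log2(normalised count + 1) for the 33 genes that were neither expressed nor silent in all 3 lines (rows, with chromosome) in the 6 libraries (columns, by labelled depth in reads). The libraries labelled HT-29 are bright in most of the top rows, where most values of the other 4 are dark at or near 0, and those labelled MDA-MB-436 are darker in ZNF605, ZNF701 and ZNF736.

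Chromosome 19, the main site of KRAB zinc finger clusters, holds 50 of the 132 genes and all 6 that were expressed only in the libraries labelled HT-29. On chromosome 19, 14 of 50 genes were silent in MCF10A, 2 in the HT-29-labelled libraries and 14 in those labelled MDA-MB-436. On the other chromosomes the counts were 12, 11 and 12 of 82. The silent share over all names of chromosome 19 was not counted. Over all names of the genome it was 36.9%, 28.4% and 35.1% in the same order. The median normalised count of the chromosome 19 genes was 95.2 in MCF10A, 205 in the HT-29-labelled libraries and 52.6 in those labelled MDA-MB-436. On the other chromosomes it was 201, 347 and 248 in the same order. Of all numbered ZNF genes, these 132 included, 21 of 236 on chromosome 19 (8.90%) were expressed only in the HT-29-labelled libraries, against 3 of 249 elsewhere (1.21%) and 25 of 1155 other chromosome 19 names (2.16%). The chromosome and neighbour comparisons were chosen after values had been seen and have no test.

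A KRAB box was sought by pattern in the reading frames of 128 genes with a coding transcript. The pattern used found one in 84, and the 2 patterns tried before it found 71 and 76. With the pattern used, 19 of 84 KRAB genes were silent in MCF10A, 7 in the HT-29-labelled libraries and 18 in those labelled MDA-MB-436, beside 5, 5 and 6 of the 44 others. How far the 2 classes stood apart depended on the pattern. With the first, the counts were 15, 5 and 15 of 71 beside 9, 7 and 9 of 57, and with the second 16, 5 and 15 of 76 beside 8, 7 and 9 of 52. The 5 of the 6 genes with a coding transcript all carried the box under each of the 3 patterns. So did 22 of 25 genes highest in the HT-29-labelled libraries and 14 of 19 lowest in those labelled MDA-MB-436. The 22 include the 5 genes just named. Of the 26 genes highest there, coding or not, 11 passed the filter of the fit below only through these libraries labelled HT-29. Their direction was thereby fixed. The count among 85 genes expressed in all 3 lines was 40, 44 or 48.

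**Figure D2:**
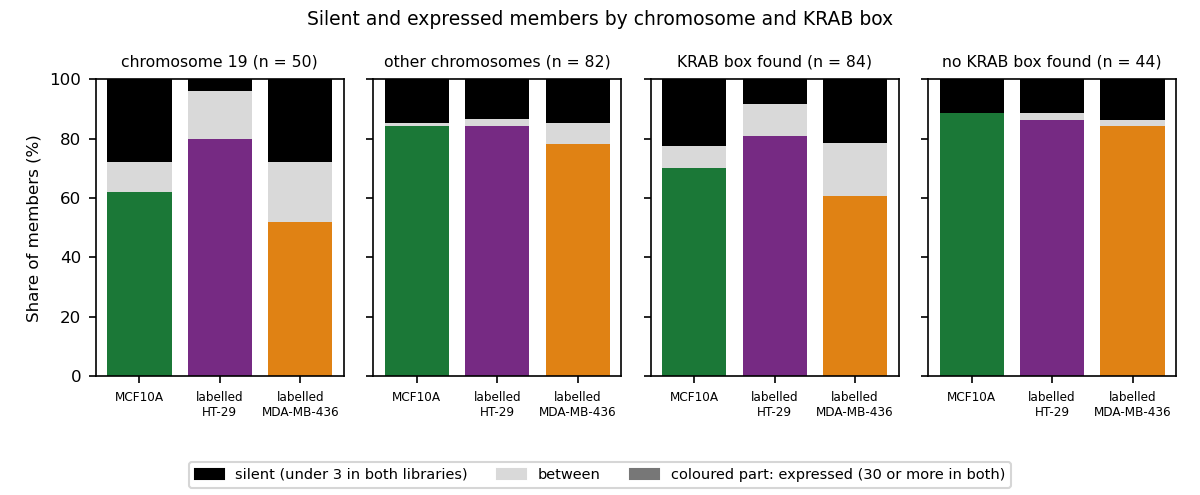
Share of genes (percent) that were expressed (coloured, at least 30 in both libraries), between (grey) or silent (black, under 3 in both) in each line, split by chromosome and by the KRAB box as found with the third pattern. On chromosome 19 the black part is 2 of 50 genes in the HT-29-labelled libraries and 14 of 50 in each of the other lines.

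The neighbours of the 6 genes shared their pattern in part. Neighbours were sought among tabled coding genes and pseudogenes in RefSeq order, without non-coding RNA genes. The 3 nearest on each side, leaving out the 132, came to 29 distinct genes. Of these, 11 (37.9%) were expressed only in the libraries labelled HT-29, beside 1.9% of all names. Among all numbered ZNF genes on chromosome 19 the share was 8.90%. Most of the 11 lay around ZNF667 and ZNF606. Of the 29, 24 carry a zinc finger symbol. Around ZNF667, 5 of 6 neighbours were expressed only there. ZNF542 stood at 773 and 782 in the HT-29-labelled libraries and at 2.06 or less in the others. ZFP28 stood at 300.0 and 293, ZNF471 at 132 and 126 and ZNF582 at 96.0 and 119, each at 0 in the other 4 libraries. ZNF470 stood at 299 and 281 and reached 1.96 in 1 MCF10A library. The sixth neighbour, ZNF583, stood at 143 and 178 there, at 3.75 and 7.86 in MCF10A and at 0.616 or less in the libraries labelled MDA-MB-436. ZNF667, ZNF471, ZFP28 and ZNF470 follow each other with no other tabled coding gene or pseudogene between. With 4 genes, this was the chromosome's longest run of genes expressed only in the HT-29-labelled libraries.

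Around ZNF606, 3 of 6 neighbours had the pattern: ZNF418 (179 and 172), ZNF135 (279 and 252) and ZSCAN18 (1103 and 1091), with 2.06 or less elsewhere. ZNF256 between them stood at 342 and 346 in the libraries labelled HT-29 but also at 54.3 and 61.4 in MCF10A. Beside ZNF677, ZNF415 stood at 167 and 164 and ZNF347 at 504 and 493, with at most 2.06 in the other 4 libraries. Beside ZNF610 the pattern stopped within a few genes. ZNF880 stood at 237 and 204 against 0, while ZNF480 on the other side stood at 1262 and 1283 in MCF10A, 530 and 544 in the HT-29-labelled libraries and 142 and 153 in those labelled MDA-MB-436. ZNF625 and ZNF788 are next but one to each other, with ZNF20 between them, and ZNF20 had at most 0.547 in any library. Clustered genes of this kind are similar in sequence, and how reads that fit several of them were assigned is not stated in any source used here, which leaves their levels uncertain to that extent.

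**Figure D3:**
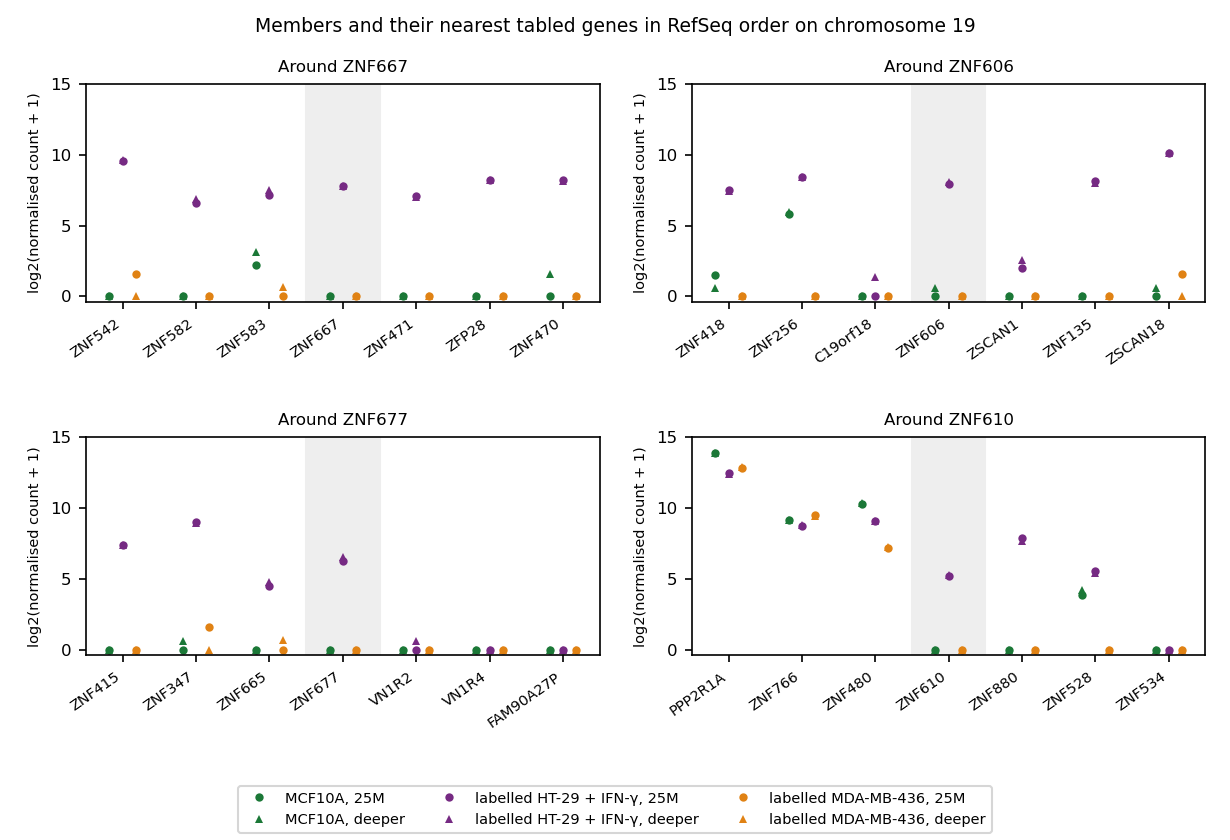
Log2(normalised count + 1) of ZNF667, ZNF606, ZNF677 and ZNF610 (grey band) and of their nearest tabled coding genes or pseudogenes in RefSeq order, with 1 point per library. Around ZNF667 the libraries labelled HT-29 are high at all 7 genes while most other points lie at or near 0.

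Further runs of neighbouring genes, chosen after their values were seen, had other patterns. The 6 genes ZNF768, ZNF747, ZNF764, ZNF688, ZNF785 and ZNF689 on chromosome 16 were all expressed in all 3 lines. On chromosome 7, ZNF727, ZNF735 and ZNF679 were silent in all 3 lines, and ZNF716 stood between 0 and 4.5 in all 6 libraries. ZNF736, which follows ZNF679, was low only in the libraries labelled MDA-MB-436 as described above, and ZNF680 after it was expressed in all 3.

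For comparisons between lines, limma was fitted to log2(normalised count + 1) of 15638 genes that reached 10 in at least 2 libraries. A gene was called at a Benjamini-Hochberg adjusted p under 0.05 and a log2 fold change of at least 1. Of the 132 genes 117 were tested. The filter was passed by 11 of them only through the libraries labelled HT-29 and by 1 only through MCF10A, and such genes had to be higher there. The labels do not say that a line's libraries came from separate cultures, so the p-values reflect the variation between the libraries alone, possibly only technical. Every pair of comparisons shares a line.

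Against MCF10A, the libraries labelled MDA-MB-436 had 23 genes called higher and 21 lower, or 19.7% and 17.9% of those tested, where 25.6% and 23.7% of all tested genes were called. The median log2 difference was 0.10, beside 0.00 over all genes. After ZNF717, the largest increases were of ZNF674, ZNF711, ZNF703 and ZNF641. ZNF674, an X-linked KRAB gene studied in intellectual disability, stood at 58.0 and 65.3 in MCF10A and at 659 and 615 in the libraries labelled MDA-MB-436, a difference of 3.35 on the log2 scale (SE 0.100, limma adjusted p = 1.96e-08). ZNF711, an X-linked gene whose product works with the demethylase PHF8, stood at 131 and 135 against 1064 and 978 (log2 fold change 2.93). ZNF703, a corepressor gene amplified in luminal breast cancers, stood at 159 and 191 against 1188 and 1243 (2.79), and ZNF641 at 140 and 156 against 737 and 767 (2.34). Only genes whose libraries did not overlap were eligible for this list. The largest falls were of ZNF750, ZNF701, ZNF605, ZNF607 and ZNF736. ZNF701 changed by -4.82 (SE 0.129, adjusted p = 1.08e-08), and its pooled reads were 30.5-fold higher in MCF10A (95% counting interval 20.0 to 49.0). ZNF607 stood at 225 and 281 against 16.5 and 10.5, a change of -4.16.

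Against MCF10A, the libraries labelled HT-29 had 36 genes called higher and 7 lower, or 30.8% and 5.98%, beside 28.4% and 18.1% of all tested genes. The median log2 difference was 0.53, beside 0.13 over all genes. Among the 326 tested other numbered ZNF genes, 117 were higher and 23 lower with a median of 0.54. The largest rises were those of ZNF667, ZNF606, ZNF788 and ZNF677, described above, and of ZNF717. The 7 that fell include ZNF750, ZNF738, ZNF783, ZNF608 and ZNF706. ZNF738 stood at 358 and 334 in MCF10A and at 64.5 and 59.1 in the libraries labelled HT-29, a difference of -2.47 on the log2 scale (SE 0.168, limma adjusted p = 2.96e-06). ZNF783 stood at 1052 and 1092 against 315 and 305 (-1.79). ZNF608 stood at 285 and 268 against 78.0 and 97.4 (-1.65), and ZNF706 at 3640 and 3526 against 1139 and 1195 (-1.62).

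Between the libraries labelled HT-29 and those labelled MDA-MB-436, 43 genes were called higher in the first and 15 lower, or 36.8% and 12.8%, beside 29.9% and 23.5% of all tested genes. The median log2 difference was 0.43, beside 0.09 over all genes. Scaling by library size alone gave 52 higher and 9 lower, beside 5692 and 2797 of all genes, and it moved the median of all genes to 0.43. ZNF605 differed most after ZNF606, ZNF667, ZNF788 and ZNF677, by 5.48 on the log2 scale (SE 0.184, adjusted p = 3.68e-08). Lower in the libraries labelled HT-29 were ZNF620, which stood at 22.5 and 21.3 against 208 and 214 (-3.21), ZNF783 (-2.01), ZNF740 at 723 and 785 against 2798 and 2767 (-1.88), ZNF710 (-1.77) and ZNF644 (-1.53).

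**Figure D4:**
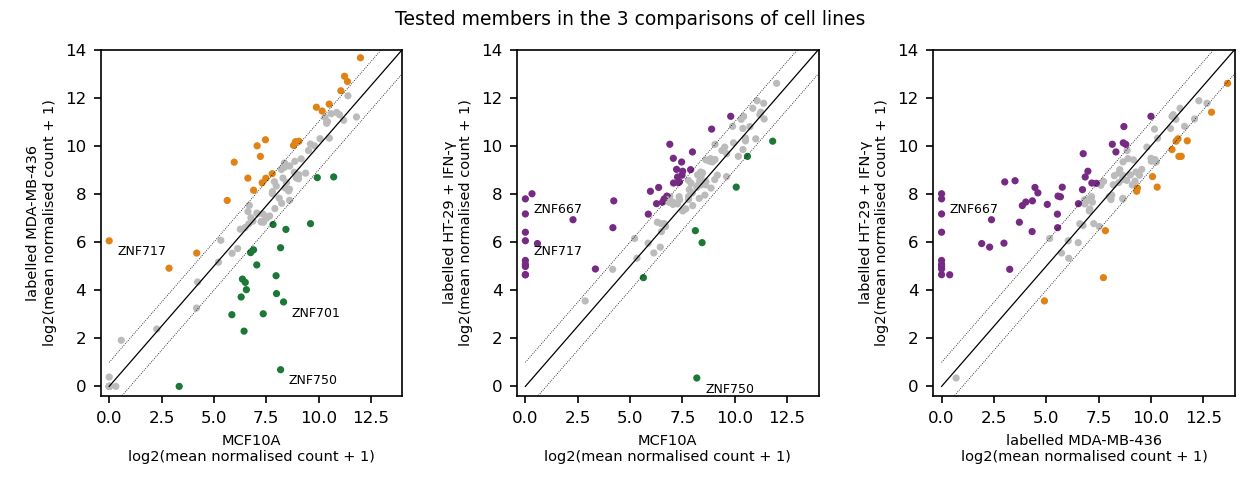
Mean normalised counts of the 117 tested genes, as log2(mean + 1), in the 3 pairs of lines. Coloured points were called, in the colour of the line where they were higher; the solid line marks equal levels and the dotted lines a log2 difference of 1. The points along the left edge of the panels with the libraries labelled HT-29 are genes at or near 0 in the other line.

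Counted by line, 26 of the 117 tested genes (22.2%) were called higher in the libraries labelled HT-29 than in both other lines, beside 16.9% of all tested genes. The 26 include the 11 genes that passed the filter only through these libraries, so that their direction was fixed. How many of all tested genes passed in this way was not counted. Lower than in both other lines were 5 there (4.27%, beside 8.1%). In the libraries labelled MDA-MB-436, 19 genes (16.2%, beside 15.2%) were lowest and 7 (5.98%, beside 14.9%) highest. In MCF10A, 11 (9.4%, beside 12.7%) were lowest and 2, ZNF738 and ZNF750 (1.71%, beside 8.54%), highest. ZNF750 passed the filter only through MCF10A.

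The panel of 22 genes also holds chromatin and growth regulators that were expressed in all 3 lines. ZNF638, which takes part in silencing unintegrated retroviral DNA, stood at 2170 and 2107 in MCF10A, 3735 and 3754 in the HT-29-labelled libraries and 4959 and 5023 in those labelled MDA-MB-436. ZNF644, a partner of the histone methyltransferase G9a, stood at 1438 and 1469, 1140 and 1217, and 3489 and 3310 in the same order. ZNF609 stood at 2365 and 2458, 2750 and 2630, and 7652 and 7510. All 3 were called in the libraries labelled MDA-MB-436 against MCF10A, with log2 fold changes of 1.22, 1.22 and 1.65. ZNF687, a gene mutated in a severe form of Paget disease of bone, stood at 1393 and 1350, 2441 and 2324, and 2098 and 2001 and was called in no comparison. ZNF746, also known as PARIS and a target of the ubiquitin ligase Parkin, stood between 1216 and 1496 in all 6 libraries and was not called either. ZNF622, ZNF655, ZNF668 and ZNF689 were likewise not called. With library size alone, ZNF687 and ZNF655 passed the fold limit in the HT-29-labelled libraries against MCF10A, and ZNF668 against those labelled MDA-MB-436. ZNF768 rose by 1.71 in the libraries labelled MDA-MB-436 against MCF10A. ZNF645, a testis gene, had 0 in all 6 libraries. The highest normalised counts of the 132 genes were those of ZNF664 in every line, at 4105 and 4063, 6077 and 6291, and 12889 and 12932, counts that are not scaled to transcript length.

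**Figure D5:**
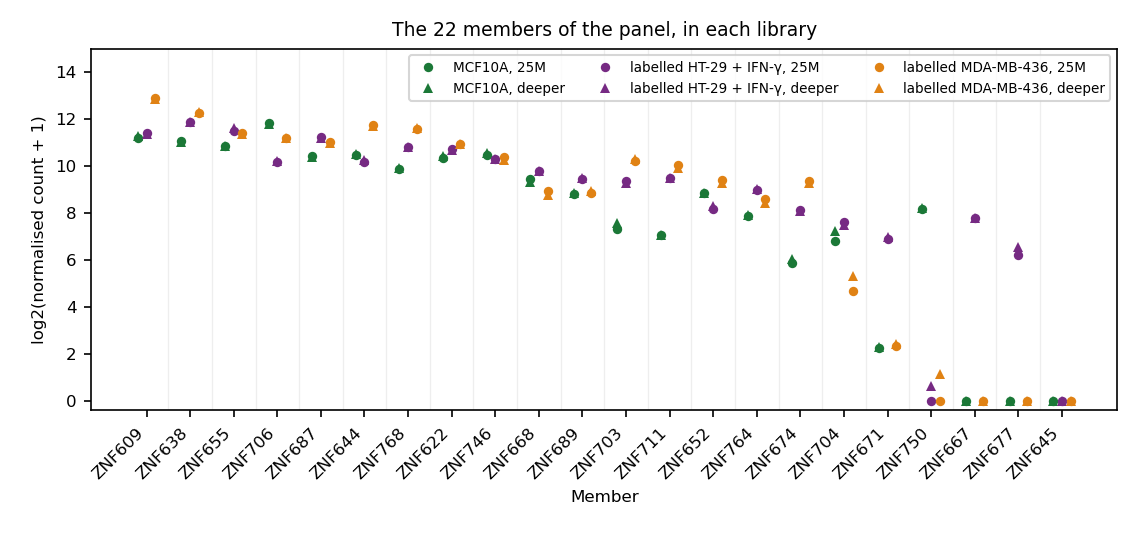
Log2(normalised count + 1) of the 22 panel genes in each library, ordered by mean level, with circles for the 25M and triangles for the deeper libraries. Circles and triangles of a line lie close together for most genes, and ZNF750, ZNF667 and ZNF677 drop to or near 0 in 2 of the 3 lines.

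RNA of genes tied to repression by KRAB zinc finger proteins, or to related silencing, was detected in all 3 lines. A list of 23 such genes from background knowledge had 22 in the tables. TRIM28 stood at 24330 and 24137 in MCF10A, 15781 and 14897 in the HT-29-labelled libraries and 14863 and 15195 in those labelled MDA-MB-436, and SETDB1 between 1874 and 2520 in all 6, and neither was called. In the HT-29-labelled libraries against MCF10A, 3 of 22 were called higher and 1 lower, or 13.6% and 4.55%, beside 28.4% and 18.1% of all tested genes. The first 3 are the DNA methyltransferases DNMT3A and DNMT3B and ZNF274, a KRAB protein that recruits SETDB1. DNMT3B stood at 93.6 and 97.7 in MCF10A and at 407 and 454 in the libraries labelled HT-29 (log2 fold change 2.16), and ZNF274 at 326 and 354 against 1710 and 1860 (2.39). FAM208A, the HUSH subunit TASOR, was the 1 lower. In the libraries labelled MDA-MB-436 against MCF10A, 3 were higher (HDAC1, TRIM33, ZNF274) and 3 lower, or 13.6% each, beside 25.6% and 23.7%. The lower were CBX1, the maintenance methyltransferase DNMT1, at 10239 and 10360 against 3191 and 3203 (-1.69), and its partner UHRF1, at 2689 and 2750 against 700 and 640 (-2.02). Between the libraries labelled HT-29 and those labelled MDA-MB-436, 5 were higher (CHD3, DNMT1, DNMT3B, UHRF1, ZNF274) and 2 lower (MPHOSPH8, TRIM33), or 22.7% and 9.09%, beside 29.9% and 23.5%. ZNF274 carries a zinc finger number but lies outside the range described. Whether these levels bear on the silent genes was not tested.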

How the data were processed

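The deposited tables have 23368 rows with symbol, normalised count and RPKM, per the file headers. The submitters' processing notes name FastQC, STAR 2.2.0, HTSeq and hg19 without settings. No source used here states strand or annotation. The deposited normalised counts are treated as a signal, since 100% of the values in each library were whole multiples of 1 step (tolerance 0.001), from which whole reads were recovered. The deposited RPKM values are out of register with the symbols and were not used. The 28 symbols that read as dates were left out.

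All 6 libraries entered 1 fit with limma 3.58.1 in R 4.3.3 (trended, robust prior, pseudocount 1, 3 residual degrees of freedom). edgeR 4.0.16 and DESeq2 1.42.0 on recovered reads, and other scalings, filters, pseudocounts and left-out libraries, were alternatives. The code was tested on simulated counts. Fold changes on the log2(value + 1) scale understate the change of low genes, and pooled folds use recovered reads with 95% counting intervals.

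Median chi-square between the libraries of a line, over genes with 20 or more reads, was 0.553 (MCF10A), 0.730 (labelled HT-29) and 0.686 (labelled MDA-MB-436). Sampling alone would give 0.455. The labels of the deeper MCF10A library disagree on its depth.

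The members and lists were chosen with earlier results of these data known. Named genes are those with a 1-line pattern, the 5 with the largest called fold per direction and comparison with no overlap, a panel of 22, the 3 highest per line, and the called genes of the corepressor list. Neighbours, and those just outside a limit, were chosen after values were seen.

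KRAB boxes and fingers were sought in the longest or any reading frame of GENCODE transcripts, since no RefSeq protein table was used here. The KRAB pattern was changed 2 times after member counts had been seen, because genes known to carry the box were missed. All 3 counts are printed, and the pattern used still misses some boxes. RefSeq matched 124 of the symbols and 8 by an older symbol.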

Additional observations from a re-analysis of the deposited data

How the results depend on the processing

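Counts of called genes stayed within 1.5 times under the alternatives run, except for the number lower in the libraries labelled HT-29 than in those labelled MDA-MB-436, 15 as reported, which was 9 with library size scaling alone and 9 when tested against a fold of 2; the cause was not tested. The 23 higher and 21 lower genes of the libraries labelled MDA-MB-436 against MCF10A became 22 and 22 with limma-voom and 18 and 18 when tested against a fold of 2. For the libraries labelled HT-29 against those labelled MDA-MB-436, leaving out 1 library gave 30 to 43 higher and 14 to 15 lower. It gave 26 to 39 higher and 5 to 8 lower in the libraries labelled HT-29 against MCF10A, and 23 to 24 higher and 20 to 22 lower in those labelled MDA-MB-436 against MCF10A. Without either library labelled HT-29 fewer genes pass the filter, and the all-gene count higher than in those labelled MDA-MB-436 also fell, from 4675 to 3522 or 3546. Library size alone moved the median log2 difference of all genes from 0.13 to 0.44 for the libraries labelled HT-29 against MCF10A, with 48 genes higher and 5 lower, beside 5445 and 1989 of all genes. With read depth as a replicate block the counts were 23 and 21, 36 and 7, and 43 and 15, as without it. Differences between the libraries of a line had correlations between lines of only -0.00282 to 0.0276 across 15638 genes. A correlation over so many genes cannot show a shared deviation of a few, such as that of KRT14 given above.

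The genes with a 1-line pattern depend on the limits. With expression read from 100, the number silent only in MCF10A was 0 (0.3% of all names) and the number expressed only in the libraries labelled HT-29 was 3 (1.05%). With silence read as 0 reads, the number expressed only in MCF10A was 0 (0.0471%). The number silent only in the libraries labelled MDA-MB-436 was 2 with silence under 10 (1.89%), and 0 to 1 when 1 library was left out, the 1 being ZNF737 when the deeper MDA-MB-436-labelled library was dropped. Leaving out 1 library gave 6 to 7 genes expressed only in the libraries labelled HT-29, which included the same 6 each time. Of the 120 differences of single genes, 8 called ones missed the threshold in at least 1 alternative and 5 others passed it in at least 1, and 0 reversed. The calls of ZNF620 and ZNF710 in the libraries labelled HT-29 against MCF10A are near the fold limit and end with library size alone. So do those of ZNF706, ZNF652, ZNF664 and ZNF674 between the libraries labelled HT-29 and those labelled MDA-MB-436. The larger differences of ZNF620, ZNF710 and ZNF706 given above belong to the other comparison of each gene. Depth limits statements on genes at 0 to the levels given for 3 reads.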
